A study of Rattus norvegicus with 16 samples.

Results

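Aminoacyl-tRNA synthetases are the enzymes that join each amino acid to its transfer RNA. Their transcripts were followed here in rat liver under molecular hydrogen and a choline-deficient diet defined by its L-amino acids. Of 35 synthetase genes looked for by symbol, 30 were measured, among 13439 genes that the platform's annotation names on the array. A gene was taken as measured when at least 1 probe set carried its symbol and no other, and its value was that of the probe set with the highest mean over all 16 arrays. The cytosolic enzymes, whose symbols end in 1, together with Farsa and Farsb, gave 17 measured genes of 19, and the mitochondrial enzymes, whose symbols end in 2, gave 13 of 16. Gars1 and Qars1 were listed only on probe sets that name several genes, Lars2, Mars2 and Pars2 had no listed probe set, and none of these 5 was analysed here. All 30 measured members passed the filter on low signal, of 11433 genes that did.

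The livers came from 16 male F344 rats, an inbred strain. The rats were 4 weeks old when divided into 4 groups of 4 and were sampled after 3 weeks of rearing, and the age of 4 weeks in the labels is taken as that at the start. Control rats on the normal diet ate CE-2 chow, drank dehydrogenized water and breathed air. Hydrogen-treated rats on the normal diet ate the same chow, drank hydrogen-rich water with 0.7 mM dissolved hydrogen and breathed air with 2% hydrogen. Control rats on the CDAA diet, defined by its L-amino acids and deficient in choline, received dehydrogenized water and air, and hydrogen-treated rats on the CDAA diet received hydrogen-rich water and 2% hydrogen in air. The dehydrogenized water had been made from hydrogen-rich water by stirring it in the open, so the water of all groups started from the same electrolysed source. Whole liver was sampled, so fewer cells of a type and less RNA per cell cannot be told apart. The replicates are separate samples per the labels.

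Each synthetase recognises an amino acid and its transfer RNAs, and the charged transfer RNA then carries the amino acid to the ribosome. In mammals most amino acids have a pair of nuclear genes, with a product that serves the cytosol and another that is imported into mitochondria for the small set of proteins made there. Several cytosolic enzymes are held in a multi-synthetase complex on scaffold proteins. Cytosolic synthetase genes are also known targets of the transcription factor ATF4, which is translated when eIF2α is phosphorylated under amino acid shortage or other stress, and which binds C/EBP-ATF response elements together with a C/EBP partner. The diet replaces protein by free amino acids and lacks choline, a precursor of phosphatidylcholine, and it is used in rats to produce fatty liver. It was compared with CE-2 chow, so the lack of choline, the free amino acids and any other difference between the diets cannot be told apart.

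The promoters of the members were read for a feature that does not depend on the expression values. The letters TGATGCAA, a form of the C/EBP-ATF response element, were searched on both strands of promoter windows from RefSeq (assembly GRCr8) that run from 250 bases before to 50 bases after each transcription start. They were present in 7 of 16 cytosolic promoters (43.8%), in 0 of 13 mitochondrial promoters and in 204 of 27457 promoters in the whole table (0.743%). The looser TGATGNAA, which contains the former, was present in the same share of cytosolic promoters (7 of 16) and in 3.82% of all promoters. TGACGTCA, a cyclic AMP response element, was found in 0 of 16 cytosolic promoters, 0 of 13 mitochondrial promoters and 1.91% of all. Rars1 had no entry in the table. A match describes letters only and is neither a shown binding site nor a cause of the changes below. Excerpts of 23 to 60 bases around the match are shown for the 7 cytosolic windows that hold TGATGCAA, because the results return to these genes. Each is written 5′ to 3′ on the gene's own strand, with the matched 8 bases in capitals, and where the match lies on the opposite strand it reads TTGCATCA.
Aars1, chr19:55908344-55908403, plus strand: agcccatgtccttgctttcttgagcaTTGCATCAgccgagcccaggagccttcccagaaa
Cars1, chr1:208225334-208225363, minus strand: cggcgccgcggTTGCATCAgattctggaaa
Iars1, chr17:15193653-15193712, minus strand: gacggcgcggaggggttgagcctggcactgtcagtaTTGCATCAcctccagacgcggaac
Mars1, chr7:65023754-65023813, minus strand: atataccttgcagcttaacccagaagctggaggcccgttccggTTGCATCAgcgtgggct
Nars1, chr18:60275783-60275842, minus strand: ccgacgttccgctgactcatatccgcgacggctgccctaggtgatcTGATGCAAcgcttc
Tars1, chr2:62114803-62114862, minus strand: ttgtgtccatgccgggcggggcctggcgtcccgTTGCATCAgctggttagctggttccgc
Yars1, chr5:146820190-146820212, plus strand: acgagctcagcTGATGCAAcctg

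The capitals lie close to the start of transcription in most of these genes. With the start counted as 1 and the base before it as −1, they end at −7 in Nars1, −10 in Mars1, −17 in Iars1 and −20 in Tars1, and at −105 in Aars1. In Cars1 and Yars1 they lie inside the transcript, beginning at 18 and 39. A pair of members shares its promoter region outright. Hars1 and Hars2 are transcribed away from each other, and RefSeq places 143 bases between their starts, printed here because the cytosolic gene rose on the diet and the mitochondrial gene was not called.
Hars1 to Hars2, chr18:28672713-28672855, plus strand: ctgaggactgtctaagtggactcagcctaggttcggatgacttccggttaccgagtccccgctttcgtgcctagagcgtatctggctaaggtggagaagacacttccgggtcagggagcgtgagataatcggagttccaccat
This stretch held 0 matches to the 3 motifs searched.

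Values are on a log2 scale as deposited, so that a difference of 1 is a doubling of signal. Array medians lay between 4.33 and 4.37. In a principal component analysis the leading component carried 66.0% of the variance and split the arrays by diet, except that control normal-diet replicate 4 lay at −13.4, between the other 7 normal-diet arrays (−35.1 to −32.0) and the CDAA arrays (23.8 to 40.1). That array was the highest of its group for 15 of the 17 cytosolic synthetases. Hepatocyte markers averaged 12.0 to 12.4 on every array, so the defining genes of the labelled tissue were present. The 7 macrophage markers averaged 7.36 to 8.13 in control and 7.60 to 7.83 in hydrogen-treated rats on chow, against 8.23 to 8.57 and 8.34 to 8.90 on the CDAA diet, and none of the 7 was at or below the background line on all arrays. The 8 stellate cell markers averaged 5.79 to 6.22 and 5.81 to 5.91 on chow against 6.40 to 6.62 and 6.49 to 6.71 on the CDAA diet. In control rats the group means of endothelial markers were 7.20 on chow and 7.53 on the CDAA diet, those of bile duct markers 4.56 and 4.83, and those of blood cell markers 4.44 and 3.97. Members of a list did not move alike. In control rats the CDAA diet changed macrophage markers by −0.61 to 2.575 and stellate cell markers by 0.1075 to 1.635. Endothelial markers changed by −0.03 to 1.1175, with a median of 0.085, and the 5 bile duct markers tested by −0.0525 to 0.8125. Of the 6 bile duct markers, 1 or 2 in each group were at or below the background line on all its arrays. The part of these other cells in the synthetase results was not tested.

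The CDAA diet raised most cytosolic synthetases and few mitochondrial ones. In control rats 14 of 17 cytosolic synthetases rose, 0 fell and 3 were not called (limma, Benjamini-Hochberg adjusted p under 0.05), where 27.3% of all genes tested rose and 13.3% fell. The median cytosolic change was 0.57 on the log2 scale, against 0.04 over all genes. Of the 13 mitochondrial synthetases 1 rose, 2 fell and 10 were not called, with a median change of 0.07. In hydrogen-treated rats 13 cytosolic synthetases rose, 2 fell and 2 were not called, where 32.1% of all genes rose and 17.3% fell, and the median change was 0.50 against 0.05 over all genes. Of the mitochondrial synthetases 3 rose and 2 fell there, with a median of 0.03. Mitochondrial signals reached at most 7.59 (Yars2) and cytosolic ones 10.79 (Eprs1). The part of signal level in the difference between compartments was not tested. Without control normal-diet replicate 4 the counts in control rats were the same and the cytosolic median was 0.66. Single changes in control rats were then larger, 1.24 in place of 1.08 for Sars1, 1.01 in place of 0.87 for Iars1, 0.93 in place of 0.80 for Nars1 and 0.77 in place of 0.66 for Vars1.

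**Figure D1:**
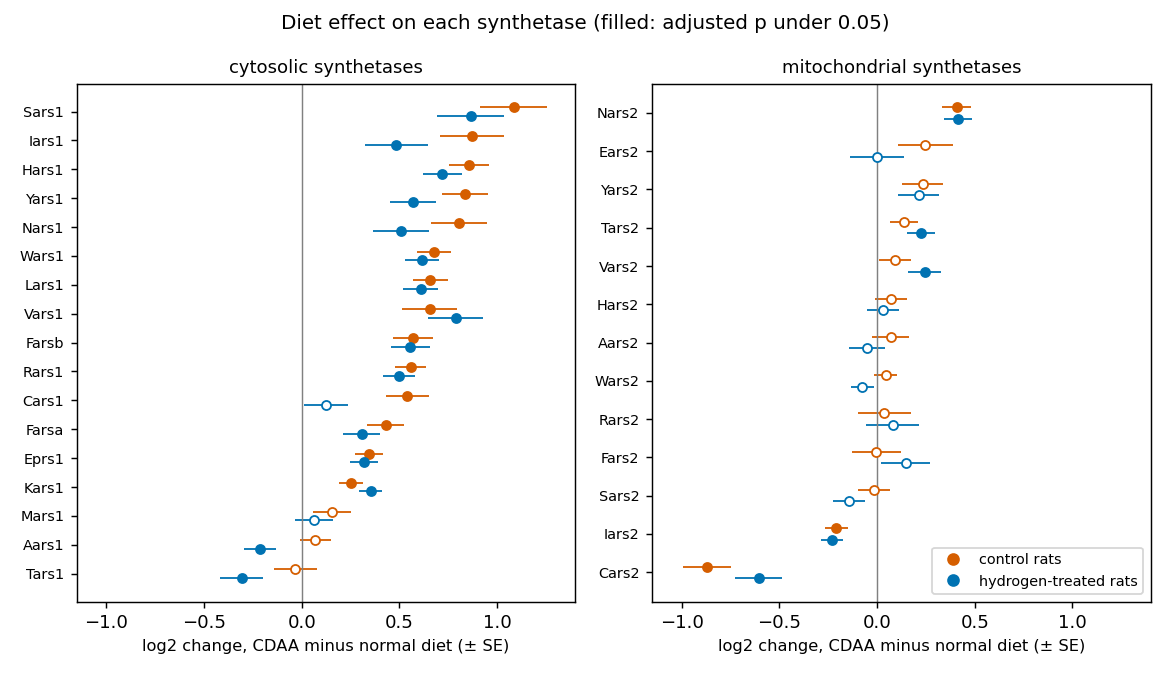
Log2 change of each synthetase on the CDAA diet against the normal diet (horizontal axis, with standard error) in control rats (orange) and hydrogen-treated rats (blue), 4 arrays per group, with cytosolic enzymes on the left and mitochondrial enzymes on the right. Filled points passed an adjusted p of 0.05. In control rats 14 of 17 cytosolic points are filled to the right of 0, while 10 of 13 mitochondrial points are open.

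Sars1, which charges serine, had the largest rise of the 30 in control rats. Its log2 signals were 7.40, 7.63, 7.65 and 8.19 in control rats on chow and 8.78, 8.45, 8.78 and 9.20 in control rats on the CDAA diet. In hydrogen-treated rats they were 7.60, 7.69, 7.72 and 7.66 on chow and 8.42, 8.29, 8.98 and 8.44 on the CDAA diet. Every CDAA array lay above every chow array, and replicate 4 of the control chow group stood nearest to the CDAA arrays. Sars1 was 2.12-fold higher in control rats (log2 1.08 ± 0.173, standard error, limma adjusted p = 0.00019) and 1.82-fold higher under hydrogen (adjusted p = 0.000835).

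Hars1, the histidine enzyme, gave the smallest adjusted p of the members. Its signals were 6.76, 6.72, 6.87 and 7.04 in control rats on chow and 7.71, 7.70, 7.66 and 7.75 on the CDAA diet. Under hydrogen they were 6.70, 6.76, 6.59 and 6.88 on chow and 7.52, 7.15, 7.72 and 7.42 on the CDAA diet. The diets did not overlap, and the 4 control CDAA arrays lay within 0.09 of each other. The change was 0.86 ± 0.101 (limma adjusted p = 1.92e-05) in control rats and 0.72 (4.21e-05) under hydrogen. The head-to-head neighbour Hars2 lay between 6.20 and 6.49 in control rats on the CDAA diet and between 6.21 and 6.42 on chow. Its groups overlapped, and its changes of 0.07 and 0.03 were not called.

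The enzymes of branched-chain and aromatic amino acids rose by 0.43 (Farsa) to 0.87 (Iars1) in control rats. Iars1, the isoleucine enzyme, had signals of 7.32, 7.44, 7.40 and 7.94 in control rats on chow and 8.36, 8.04, 8.39 and 8.79 on the CDAA diet. Its groups did not overlap, although chow replicate 4 and CDAA replicate 2 were 0.10 apart. Iars1 changed by 0.87 ± 0.164 in control rats (limma adjusted p = 0.000699). Under hydrogen its signals were 7.40, 7.61, 7.33 and 7.62 on chow and 7.86, 7.67, 8.30 and 8.07 on the CDAA diet, a change of 0.48 (limma adjusted p = 0.0242) with no overlap. That call was lost when hydrogen CDAA replicate 3 or 4, or hydrogen chow replicate 1 or 3, was left out, and under both rescalings of the arrays (largest adjusted p over all alternatives 0.0988).

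Yars1, which charges tyrosine, rose by 0.84 in control rats (limma adjusted p = 7.41e-05) and by 0.57 under hydrogen (0.00116). Its control signals were 6.74, 7.08, 7.01 and 7.33 on chow and 7.81, 7.67, 7.91 and 8.11 on the CDAA diet, with no overlap. Wars1, the tryptophan enzyme, rose by 0.68 (3.44e-05) and 0.62 (4.25e-05). Its 4 control CDAA arrays lay between 6.95 and 7.15, above the chow range of 6.20 to 6.52. Vars1, which charges valine, rose by 0.66 (limma adjusted p = 0.00193) in control rats and by 0.79 (0.000352) under hydrogen. Its signals in hydrogen-treated rats were 6.10, 5.83, 5.91 and 6.21 on chow and 6.71, 6.84, 6.94 and 6.71 on the CDAA diet, so that the diets were at least 0.50 apart. Lars1, the leucine enzyme, rose by 0.66 (5.64e-05) and 0.61 (6.45e-05), from 7.93 to 8.31 in control rats on chow to 8.52 to 8.88. Farsa and Farsb, the catalytic and the other subunit of the phenylalanine enzyme, rose by 0.43 and 0.57 in control rats and by 0.31 and 0.56 under hydrogen, where the call of Farsa was lost under both rescalings (adjusted p up to 0.184).

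Nars1, the asparagine enzyme, rose by 0.80 ± 0.144 in control rats (limma adjusted p = 0.000484) and by 0.51 under hydrogen (0.00955). Its signals were 8.32, 8.54, 8.43 and 8.94 in control rats on chow and 9.49, 9.04, 9.39 and 9.53 on the CDAA diet. Chow replicate 4 was again the closest to the CDAA arrays, and the groups did not overlap. Rars1, which charges arginine, rose by 0.56 (8.97e-05) and 0.50 (0.000154), with no overlap under either condition.

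**Figure D2:**
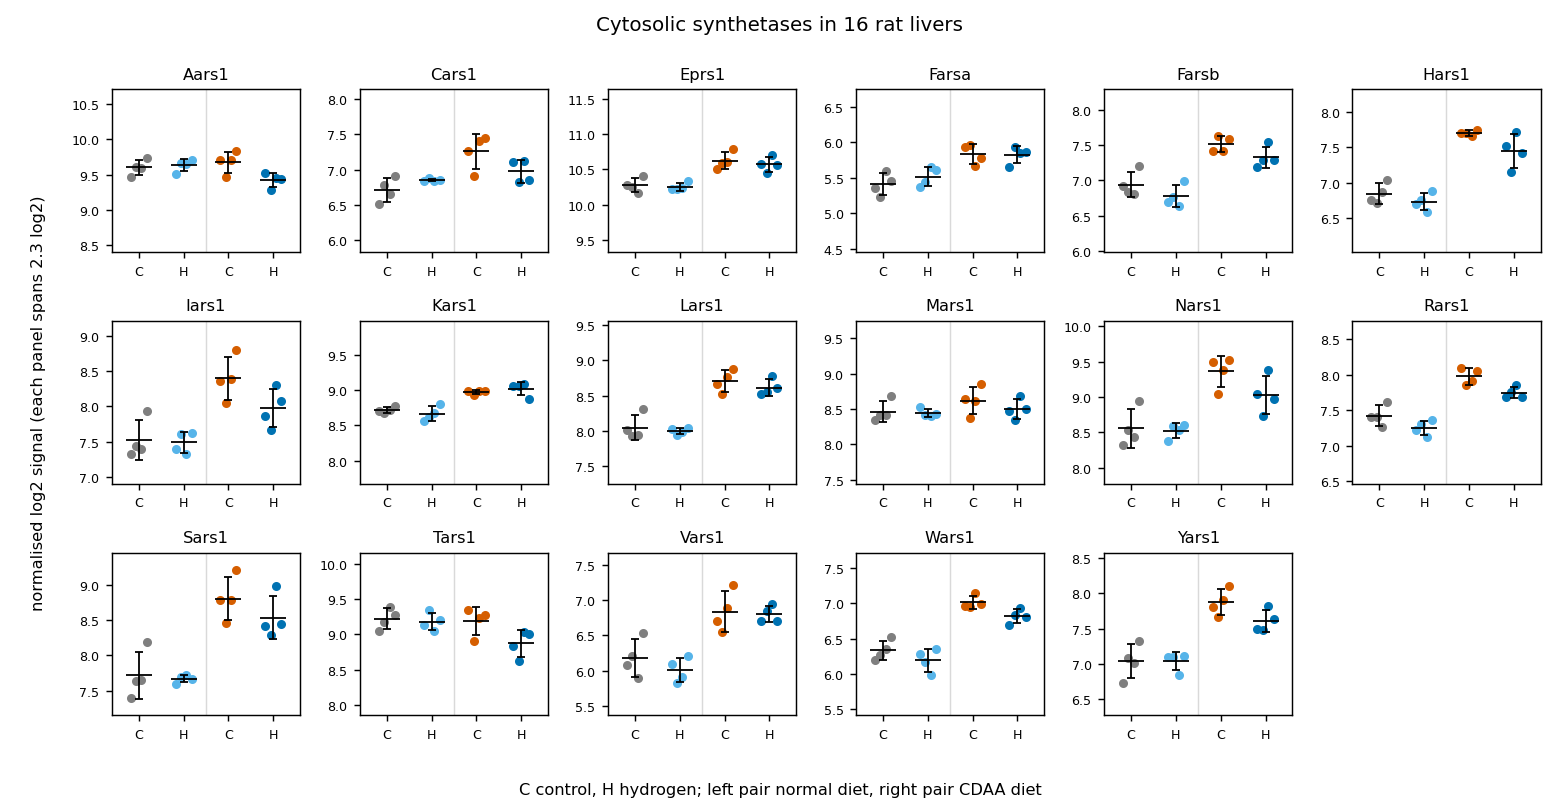
Normalised log2 signal of the 17 cytosolic synthetases on the 16 arrays (C control, H hydrogen, chow on the left and CDAA on the right of each panel), with group means and SD as bars, n = 4 per group. Every panel spans the same 2.3 log2 units. In Sars1, Hars1 and Wars1 all CDAA points lie above all chow points, while in Aars1, Mars1 and Tars1 the diets overlap in control rats.

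The smallest called rises in control rats were those of Eprs1 and Kars1. Eprs1 is a fused enzyme that charges both glutamate and proline. Its signals were 10.28, 10.25, 10.17 and 10.41 in control rats on chow and 10.50, 10.59, 10.60 and 10.79 on the CDAA diet, a change of 0.34 ± 0.0719 (limma adjusted p = 0.0016) with no overlap. Kars1, whose gene supplies the lysine enzyme of both the cytosol and mitochondria, rose by 0.25 ± 0.0599 in control rats (limma adjusted p = 0.00371) and by 0.35 under hydrogen (0.000221). Its control arrays were tight, 8.67 to 8.77 on chow and 8.93 to 8.99 on the CDAA diet.

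Cars1, the cysteine enzyme, rose in control rats but was not called under hydrogen. Its signals were 6.52, 6.79, 6.65 and 6.91 in control rats on chow and 7.26, 6.91, 7.41 and 7.45 on the CDAA diet, where CDAA replicate 2 met the highest chow array. The change was 0.54 ± 0.111 (limma adjusted p = 0.00135). In hydrogen-treated rats the signals were 6.84, 6.88, 6.84 and 6.85 on chow and 7.11, 6.83, 7.12 and 6.85 on the CDAA diet, and the change of 0.12 was not called (0.373). The difference between these 2 diet effects was −0.41 ± 0.157 (limma adjusted p = 0.467), so it was not called either.

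Aars1, Mars1 and Tars1, which charge alanine, methionine and threonine, were not called in control rats. In control rats Tars1 had signals of 9.05, 9.17, 9.39 and 9.28 on chow and 9.35, 8.90, 9.23 and 9.28 on the CDAA diet, a CDAA range that contained nearly all of the chow range. In hydrogen-treated rats it fell by 0.31 (limma adjusted p = 0.0323), from 9.13, 9.34, 9.05 and 9.21 on chow to 8.84, 8.62, 9.03 and 9.01, with no overlap. Aars1 fell by 0.21 in the same rats (limma adjusted p = 0.0433), with signals of 9.51, 9.67, 9.65 and 9.71 on chow and 9.52, 9.28, 9.45 and 9.44 on the CDAA diet, and CDAA replicate 1 lay just above the lowest chow array. The Tars1 call was lost when any of hydrogen CDAA replicates 1 and 2 or hydrogen chow replicates 2 and 4 was left out (adjusted p up to 0.108), and the Aars1 call was lost in 10 of 16 such fits (up to 0.127). Those 10 left out control CDAA replicate 1 or 3, control chow replicate 2 or 3, hydrogen CDAA replicate 2, 3 or 4, or hydrogen chow replicate 2, 3 or 4. Mars1 changed by 0.16 and 0.06, neither called.

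Of the 6 measured enzymes of the multi-synthetase complex (Eprs1, Iars1, Kars1, Lars1, Mars1 and Rars1) 5 rose in both conditions, with medians of 0.45 and 0.42, and Mars1 was not called. Outside the complex 9 of 11 rose in control rats, and 8 rose and 2 fell under hydrogen, with medians of 0.66 and 0.56. Of the scaffolds, Aimp2 rose by 0.48 (limma adjusted p = 0.000507) and 0.40 (0.00161), and Eef1e1, also called AIMP3, rose by 0.83 (0.000175) and 0.60 (0.00152). The third scaffold, Aimp1, changed by 0.17 and −0.21 and was not called. By structural family, 7 of 8 class I enzymes and 6 of 8 class II enzymes of the cytosol rose in control rats, leaving out the fused Eprs1. Under hydrogen 6 of 8 class I enzymes rose and 0 fell, and 6 of 8 class II enzymes rose and 2 fell. Among all genes tested 27.3% rose and 13.3% fell in control rats, and 32.1% rose and 17.3% fell under hydrogen. The 2 falls are those of Aars1 and Tars1, whose calls were lost when single arrays were left out, so nothing is read from them.

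Further probe sets of the same genes did not always repeat these changes. Of the members, 15 had more than 1 probe set, and the 30 genes had 49 probe sets in all. Sars1 also rose on a second, dimmer probe set in control rats (4.12 to 4.54, limma adjusted p = 0.00233), which was not called under hydrogen. The second Iars1 set exceeded the background line of 3.68 on only 1 of 4 control chow arrays and 0 of 4 hydrogen chow arrays, so its change is not used. The further sets of Hars1, Kars1, Lars1 and Wars1 were not called. Eprs1 has a second bright set, with group means of 9.30 to 9.75, which changed by −0.25 in control rats and −0.37 under hydrogen and was not called (limma adjusted p = 0.267 and 0.0817). A dimmer set, at 3.91 to 4.46, fell by 0.48 and 0.50 (limma adjusted p = 0.0327 and 0.0237), and a further set was not above the background line on any CDAA array. The mean of all 4 sets changed by −0.12 and −0.19. The direction of Eprs1 therefore depends on the probe set. Of the 3 further Cars1 sets the brightest rose in control rats (0.21, limma adjusted p = 0.0474) and fell under hydrogen (−0.28, limma adjusted p = 0.00887), and another was below the background line on all 4 control chow arrays.

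The 3 mitochondrial enzymes called in control rats were also called under hydrogen, in the same directions; the 2 comparisons use different rats. Cars2, the mitochondrial cysteine enzyme, had signals of 7.24, 6.71, 6.87 and 6.75 in control rats on chow and 6.09, 6.17, 5.79 and 6.04 on the CDAA diet. Under hydrogen they were 6.79, 6.65, 6.49 and 6.64 on chow and 6.27, 6.03, 5.78 and 6.07 on the CDAA diet. No CDAA array reached a chow array in either condition. Cars2 fell by 0.87 (standard error 0.121, limma adjusted p = 6.4e-05) in control rats and by 0.60 (0.000859) under hydrogen. Its second probe set, dimmer at group means of 4.30 to 4.41, changed by −0.03 and −0.02 and was not called.

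Nars2, the mitochondrial asparagine enzyme, rose in both conditions. Its signals were 4.42, 4.48, 4.17 and 4.26 in control rats on chow and 4.76, 4.79, 4.77 and 4.64 on the CDAA diet, not far above the background line of 3.68. The change was 0.41 ± 0.0727 (limma adjusted p = 0.000471) and, under hydrogen, 0.41 (0.000288), with no overlap. Its second probe set changed by −0.01 in each condition, and with the mean of both sets the call in control rats was lost. Iars2, the mitochondrial isoleucine enzyme, had signals of 6.94, 6.84, 6.93 and 6.90 in control rats on chow and 6.67, 6.70, 6.72 and 6.69 on the CDAA diet. These groups were tight and did not overlap, and Iars2 fell by 0.21 (limma adjusted p = 0.0111) in control rats and by 0.23 (0.00474) under hydrogen.

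Tars2 and Vars2, for threonine and valine, rose by 0.23 and 0.24 in hydrogen-treated rats (limma adjusted p = 0.0167 and 0.0259), with overlapping groups. The Tars2 call was lost without hydrogen CDAA replicate 1 or 2 and under both rescalings (adjusted p up to 0.414), and the Vars2 call without hydrogen CDAA replicate 1, 2 or 4 or hydrogen chow replicate 2 or 3 and when arrays were centred (up to 0.144). In control rats their changes of 0.14 and 0.09 were not called. The remaining 8 mitochondrial enzymes were called in neither condition. Among them Ears2, which charges glutamate, spread from 5.76 to 6.60 in control rats on the CDAA diet, a range that contained most values of the other groups.

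**Figure D3:**
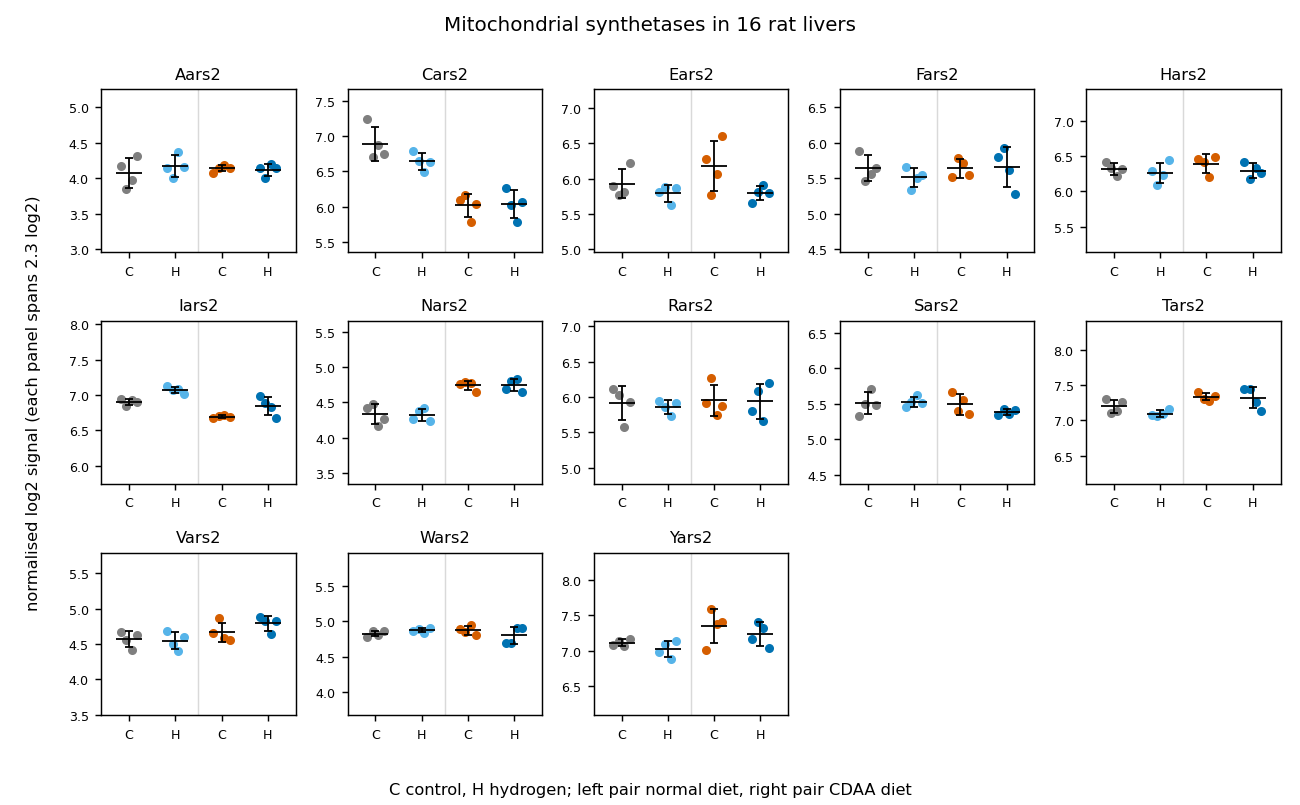
Normalised log2 signal of the 13 mitochondrial synthetases on the 16 arrays, drawn as for the cytosolic enzymes (C control, H hydrogen, chow left, CDAA right, bars mean and SD, n = 4, panels of 2.3 log2 units). Cars2 lies lower and Nars2 higher on every CDAA array than on every chow array of the same treatment, and most other panels are flat.

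Array by array, the median over a compartment gave the following levels. Relative to the mean of control rats on chow, the median cytosolic synthetase stood at −0.12, −0.05, −0.07 and 0.20 in that group and at 0.54, 0.47, 0.69 and 0.66 in control rats on the CDAA diet. It stood at −0.09 to 0.04 in hydrogen-treated rats on chow and at 0.34, 0.33, 0.60 and 0.42 in those on the CDAA diet. All 8 CDAA arrays lay above all 8 chow arrays, and chow replicate 4 of the control group was the highest of the latter. The median mitochondrial synthetase lay between −0.11 and 0.10 on all 16 arrays.

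Each of 12 amino acids had a measured enzyme in both compartments, and the change of the cytosolic gene was set against that of its mitochondrial counterpart by an exact two-sided permutation test of their difference on each array, adjusted over the 12 pairs of a condition. The smallest p that 4 arrays against 4 allow is 0.0286. In hydrogen-treated rats the change of the cytosolic gene lay above that of the mitochondrial gene in 7 pairs (those of cysteine, histidine, isoleucine, arginine, serine, valine and tryptophan) and below it in 1, threonine, each at that smallest p and an exact adjusted p = 0.0429. The differences in change ranged from 0.42 for arginine to 1.01 for serine in those 7 pairs, and the difference was −0.53 for threonine. In control rats 5 pairs did not overlap between the diets (cysteine 1.41, serine 1.10, isoleucine 1.08, histidine 0.79 and tryptophan 0.63), but with 5 pairs at the smallest p the exact adjusted p was 0.0686 and 0 pairs were called. In the cysteine pair, which differed most in control rats, Cars1 rose and Cars2 fell there, whereas under hydrogen Cars2 fell by 0.60 and Cars1, at 0.12, was not called. In the threonine pair under hydrogen Tars1 fell by 0.31 and Tars2 rose by 0.23. In the alanine pair both changes were 0.07 in control rats. The median difference over the 12 pairs was 0.58 in control rats and 0.48 under hydrogen, so the counts of calls do not follow its size. Limma called 40.6% of all genes for the diet in control rats and 49.5% under hydrogen. How often other pairs of genes separate in this way was not counted, so nothing is read from the counts of pairs. With the mean of all probe sets of a gene, 0 pairs passed in either condition (smallest exact adjusted p 0.0686).

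**Figure D4:**
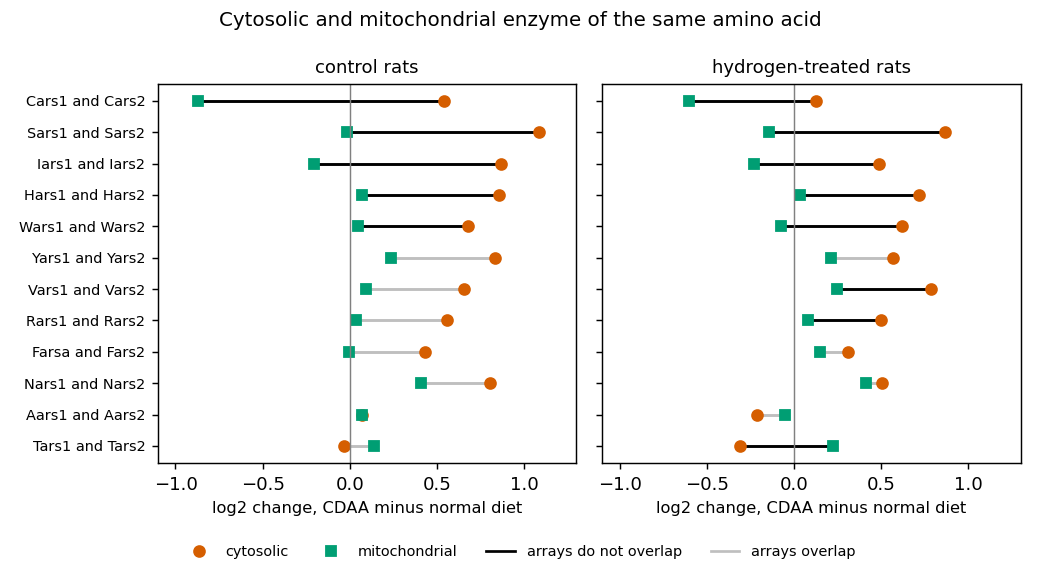
Log2 change on the CDAA diet (horizontal axis) of the cytosolic (orange circle) and mitochondrial (green square) enzyme of 12 amino acids, in control rats (left) and hydrogen-treated rats (right), from 4 arrays per group. Black lines join pairs whose difference on the CDAA arrays does not overlap that on the chow arrays, 5 in control and 8 in hydrogen-treated rats, and the longest line is that of Cars1 and Cars2 in control rats.

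Hydrogen changed no synthetase past the threshold. On the normal diet limma called 0 of 17 cytosolic and 0 of 13 mitochondrial members (1 of each at unadjusted p under 0.05), where 0.00875% of all genes were called and 7.11% had an unadjusted p under 0.05. The medians were −0.04 and −0.05. On the CDAA diet it again called 0 of 17 and 0 of 13, where 0.376% of all genes were called, but 9 of the 17 cytosolic members had an unadjusted p under 0.05, against 1440 of 11433 genes (12.6%). Of the 17 cytosolic members 16 were lower with hydrogen, and their median was −0.23 against 0.01 over all genes tested. The mitochondrial median was −0.01, with 2 of 13 at an unadjusted p under 0.05. This comparison shares its CDAA arrays with those of the diet.

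The largest of these differences on the CDAA diet was that of Iars1, −0.42 ± 0.164 (limma adjusted p = 0.325), with signals of 8.04 to 8.79 in control and 7.67 to 8.30 in hydrogen-treated rats. Aars1 had the smallest p, with −0.25 ± 0.0812 (limma adjusted p = 0.239). Its control CDAA arrays read 9.70, 9.46, 9.70 and 9.83 and its hydrogen CDAA arrays 9.52, 9.28, 9.45 and 9.44, so replicate 2 of the control group fell among the hydrogen arrays. Without that replicate the adjusted p was 0.0491. Ears2, at −0.38 and an adjusted p = 0.293 in limma, also passed without it (0.0497). Of the cytosolic members only Wars1 had groups that did not overlap (6.95 to 7.15 against 6.69 to 6.93), with a change of −0.20 and a limma adjusted p = 0.393. The share of all genes without overlap was not counted, so nothing is read from this. Kars1, at 0.05, was the cytosolic member that was not lower.

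The effect of the diet did not differ between control and hydrogen-treated rats for any member past the threshold. Limma called 0 of 30 members and 0.0% of all genes for this interaction, with 2 cytosolic and 0 mitochondrial members and 1060 of 11433 genes at an unadjusted p under 0.05. The cytosolic median of the interaction was −0.12, and 15 of 17 were below 0. The 2 members were Cars1, described above, and Aars1, with −0.28 ± 0.115 (limma adjusted p = 0.5).

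Genes with and without TGATGCAA in their windows are given side by side. In control rats 4 of the 7 rose (Cars1, Iars1, Nars1 and Yars1) and Aars1, Mars1 and Tars1 were not called, with a median of 0.54. All 9 of the other cytosolic genes with a promoter entry rose, with a median of 0.66. Among all genes tested 27.3% rose and 13.3% fell in control rats, and 32.1% rose and 17.3% fell under hydrogen. Under hydrogen 3 of the 7 rose, 2 fell and 2 were not called, with a median of 0.12, and again all 9 others rose, with a median of 0.61. The difference between hydrogen and control on the CDAA diet had a median of −0.28 in the 7 (−0.42 to −0.11). In the 9 it was −0.09 (−0.27 to 0.05), and limma called 0 of the 16, where 0.376% of all genes were called. The 9 include Eprs1, whose direction depends on the probe set, and Farsa, whose call under hydrogen was lost under both rescalings. In the 7 the rise of Iars1 and the falls of Aars1 and Tars1 under hydrogen were lost when single arrays were left out. These medians describe groups of 7 and 9 genes, and their difference was not tested.

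**Figure D5:**
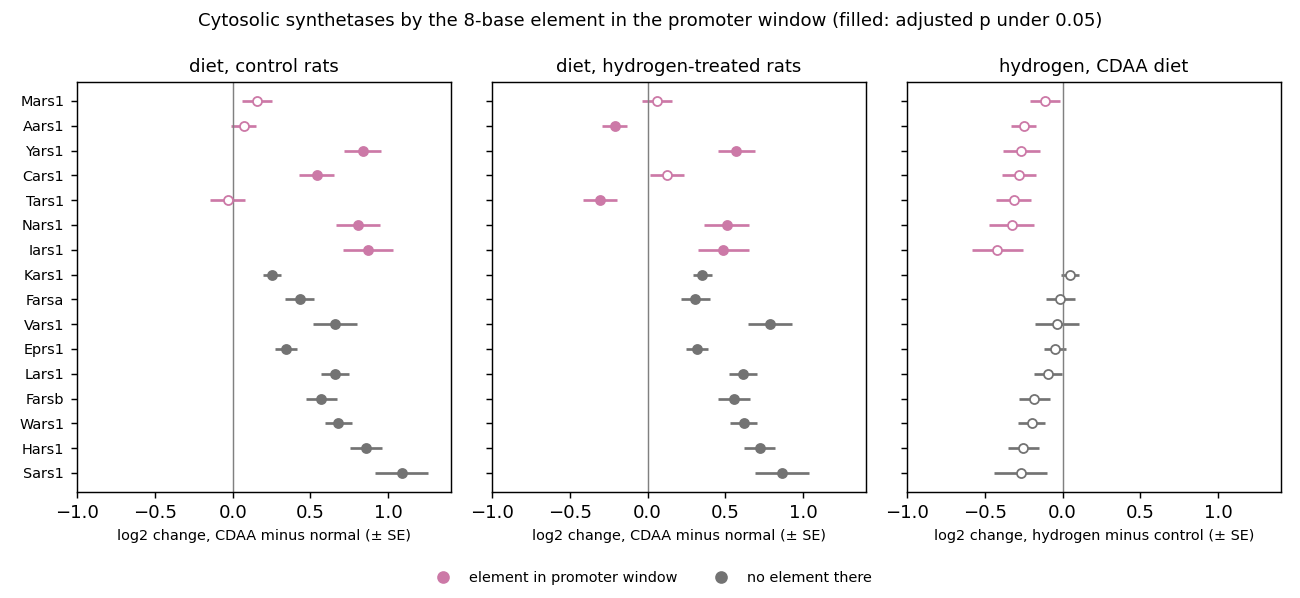
Log2 change with standard error of 16 cytosolic synthetases, grouped by whether the promoter window holds TGATGCAA on either strand (pink, 7 genes) or not (grey, 9 genes), for the diet in control rats, the diet in hydrogen-treated rats and hydrogen on the CDAA diet, 4 arrays per group. Filled points passed an adjusted p of 0.05. All 9 grey points are filled in the left and middle panels, and all 7 pink points lie below 0 in the right panel, where none is filled.

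Other parts of the translation apparatus were read on the same arrays. For comparison, 27.3% of all genes rose and 13.3% fell in control rats, and 32.1% rose and 17.3% fell under hydrogen. All 6 measured cytosolic elongation factors rose in both conditions (medians 0.55 and 0.55), among them Eef1g, a subunit of the exchange factor that reloads eEF1A, by 0.72 (limma adjusted p = 5.7e-05) and 0.74 (3.01e-05). Of 38 cytosolic ribosomal proteins tested 34 rose in each condition, with medians of 0.55 and 0.57, close to that of the cytosolic synthetases. Of 73 mitochondrial ribosomal proteins 30 and 31 rose and 2 fell, with a median of 0.14 in both conditions, against 0.07 and 0.03 for the mitochondrial synthetases. Of the 3 mitochondrial elongation factors measured, Tufm rose in control rats (0.25, limma adjusted p = 0.004) and none was called under hydrogen.

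Most genes that process transfer RNA rose as well. Of 20 genes of transfer RNA processing, modification and export 13 rose and 1 fell in control rats, and 14 rose and 1 fell under hydrogen, with medians of 0.42 and 0.36. Xpot, the exportin that carries transfer RNA out of the nucleus, rose 2.06-fold in control rats (limma adjusted p = 0.00101) and 1.58-fold under hydrogen (0.016). Trmt61a and Trmt6, the catalytic and the binding subunit of a transfer RNA adenosine methyltransferase, rose by 1.06 and 0.76 in control rats (limma adjusted p = 0.000359 and 0.000157). Of the 4 genes that amidate or formylate mitochondrial transfer RNA, 0 rose, Gatb, a subunit of the amidotransferase that completes mitochondrial glutamine charging, fell in both conditions (−0.29 and −0.22), and Mtfmt, the formyltransferase of the mitochondrial initiator, fell in control rats (−0.29, limma adjusted p = 0.0135). Of 6 genes that edit or recycle mischarged and peptidyl transfer RNA 2 and 3 rose, and of 6 that charge or insert selenocysteine 1 rose and 2 fell in control rats and 3 rose and 1 fell under hydrogen. Over all genes 27.3% rose and 13.3% fell in control rats, and 32.1% rose and 17.3% fell under hydrogen, so nothing is read from these counts of few genes.

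Most genes of the eIF2α kinase and ATF4 list rose on the diet in control rats. In control rats 25 of its 33 tested genes rose and 0 fell, with a median of 0.98, and under hydrogen 15 rose and 1 fell, with a median of 0.51. Over all genes 27.3% rose and 13.3% fell in control rats, against 32.1% and 17.3% under hydrogen. Changes in the list ran from −0.155 to 4.04 in control rats. The gene at 4.04 is not among those whose change is given below. For the interaction limma called 0 of the 33, with 7 at an unadjusted p under 0.05, against 9.27% of all genes. Hydrogen against control on the CDAA diet had a median of −0.3125 in the list, with changes from −2.795 to 0.2125. The change of −2.795 was also the lowest over all genes tested. Limma called 1 of the 33 lower, where 0.184% of all genes were called lower. There 13 of the 33 had an unadjusted p under 0.05, against 12.6% of all genes. Asns, asparagine synthetase, had group means of 4.82 and 7.69 in control rats, a 7.32-fold rise (limma adjusted p = 1.01e-05), and rose 10.5-fold under hydrogen (1.36e-06). Phgdh, of serine synthesis, rose 10.7-fold (limma adjusted p = 0.000171) and 18.4-fold (1.89e-05), and the stress regulator Nupr1 rose 9.50-fold and 5.61-fold. The transcript of Atf4 itself rose 2.01-fold in control rats (limma adjusted p = 0.00143), with overlapping groups, and its change of −0.08 under hydrogen was not called. Of the 32 list genes with a promoter entry 4 hold TGATGCAA (12.5%), namely Chac1, Fgf21, Nupr1 and Pycr1. The chaperones of the unfolded protein response were counted beside them, and 2 of 12 rose and 1 fell in control rats, and 1 rose and 4 fell under hydrogen, led by Sdf2l1 at −0.84 and −0.94.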

How the data were processed

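Liver RNA was hybridised to Affymetrix RG-230 PM array strips, 1 array per sample. What the authors deposited is a log2 value for each probe set and array. RMA and Affymetrix Expression Console are named in the submitters' processing notes, and no version is given in the sources used here. RMA includes quantile normalization, so a shift of all transcripts in a group would not show. Scan and strip batches are not in the labels used here.

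Probe sets above 3.68 (the 30th percentile of non-control values) on at least 4 arrays were kept, 22634 of 31139 with 97 controls left out. Group means were estimated from all 16 arrays together with limma 3.58.1 (R 4.3.3) and its eBayes step, and Benjamini-Hochberg adjustment ran over all kept probe sets within a contrast. Errors are standard errors of that fit. The procedure was tested on simulated data. Pairs were tested by exact permutation over all splits of the arrays, checked against scipy 1.17.1 for the alanine pair in control rats. Probe sets were named from the platform annotation, of which 19069 have 1 symbol and 572 several.

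All synthetases may be named. From other lists, changes are given only for called members, at most 4 per list and contrast, with all complex scaffolds, Atf4 and Asns. Not every called member is named, and those named need not have the largest changes. The members and lists were chosen with earlier results of these data known. Samples with the same replicate number correlated at −0.08 to 0.33 and not above 0.1 throughout any contrast, so the numbers were not used as pairs.

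Alternatives were array weights, centring, renewed quantile normalization, another low-signal line, no filter on low signal and the mean of all probe sets. Further ones were a replicate block, fits of only the groups compared, eBayes with its trend and robust options, and leaving out each array.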

Additional observations from a re-analysis of the deposited data

Results flagged for a closer look

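In 3 of 120 gene and group combinations of 4 arrays the highest or lowest array stood far from the other 3 for its group's range (Dixon's test at 95%), where chance gives about 1 in 20. Hydrogen-treated rats on chow had an Eprs1 signal of 10.34 in replicate 4, above 10.22, 10.22 and 10.23. Kars1 was lowest, at 8.93, in CDAA replicate 2 of the control rats, below 8.98, 8.98 and 8.99. Yars1 was lowest, at 6.85, in replicate 3 of the hydrogen-treated rats on chow, below 7.10, 7.10 and 7.11. All 3 flags lie in groups whose other arrays were within 0.01 of each other.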

How the results depend on the processing

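Of 17 calls of members for the diet in control rats 15 held in every alternative, and Eprs1 and Nars2 were lost with the mean of all probe sets. Of 20 calls under hydrogen 13 held in every alternative. With the mean of all probe sets Eprs1 reversed to −0.12 and −0.19, the cytosolic medians were 0.42 and 0.35, 0 mitochondrial members rose in control rats, and under hydrogen 0 pairs passed in either direction. Centring arrays on the median gave a mitochondrial median of 0.005 in control rats and −0.0675 under hydrogen, where 1 rose and 4 fell. Renewed quantile normalization gave medians under hydrogen of 0.37 (cytosolic) and −0.0669 (mitochondrial), a mitochondrial interaction median of −0.0756 and 0 pairs with the smaller change in the cytosolic gene. Array weights left 1 cytosolic fall under hydrogen. Leaving out 1 array gave 0 to 2 cytosolic falls, 1 to 3 mitochondrial rises and a mitochondrial median of 0.000833 to 0.0925 under hydrogen, 1 to 2 mitochondrial rises in control rats, 0 to 1 calls in each compartment for hydrogen on the CDAA diet and 0 called pairs, since the smallest exact p is then 0.0571. The cause of the other changes was not tested.

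With the replicate number as a block, limma made the same counts of calls, for example 14 cytosolic rises in control rats and 13 under hydrogen. A sign-flip test on same-numbered arrays called 0 pairs in either direction under hydrogen, since its smallest p is 0.125. The number of arrays limits the precision, and members near the background line, such as Aars2 and Nars2, are measured least firmly.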
